A study of Mus musculus with 8 samples.

Results

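The enzymes described here are the 9 glycerol phosphate and lysophosphatidic acid acyltransferases of the mouse, encoded by Gpam, Gpat2, Gpat3, Gpat4, Agpat1, Agpat2, Agpat3, Agpat4 and Agpat5. They were chosen by function, and every probe whose RefSeq accession belongs to one of these genes was taken, which gave 18 of the 56605 probes on the array and 9 of the 22911 genes that the probes name. Gene expression was measured on single-color Agilent SurePrint G3 mouse arrays in photoreceptor cells isolated at postnatal day 8 (P8), with 4 arrays labelled Lpcat1 HZ (heterozygous, with 1 deleted allele of Lpcat1) and 4 labelled Lpcat1 KO. Lpcat1 encodes lysophosphatidylcholine acyltransferase 1, which places palmitic acid into phosphatidylcholine. The mice are labelled as strain C57BL/6. According to the methods, the knockout line was made on a C57BL6/N background and crossed to C57BL6/J, and no mouse used was homozygous for the rd8 mutation of Crb1 that C57BL6/N carries. Retinas of both genotypes were dissociated with trypsin, and the photoreceptors were taken as CD73-positive cells with an antibody and magnetic sorting. The labels number the replicates but do not say whether each is 1 animal or a pool, so the p-values measure the spread between these samples only.

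Phosphatidic acid, the common precursor of phospholipids and triacylglycerol, is made by acylating glycerol 3-phosphate at both of its free positions. The glycerol-3-phosphate acyltransferases (GPATs) add the first acyl chain and yield lysophosphatidic acid; Gpam and Gpat2 encode the mitochondrial enzymes and Gpat3 and Gpat4 those of the endoplasmic reticulum. The lysophosphatidic acid acyltransferases, encoded by the Agpat genes, add the other chain. In the retina this route matters because photoreceptor disc membranes are rich in phospholipids with docosahexaenoic acid (DHA), and Agpat3 is the member known for placing DHA. Lpcat1 acts later, on the remodelling of the finished phosphatidylcholine, so that the acyltransferases described here are the neighbouring, de novo arm of the same lipid metabolism.

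Of the 9 genes, 7 had an upstream window of 250 bases in the RefSeq table of build GRCm38.p6 (Agpat5 and Gpat4 had none there). The windows of Agpat1 and Gpam are shown because these are the members with several start sites in the table, and because their probes are named by different transcripts. Which probe reads the transcript of which start was not analysed here. The sequences run 5′ to 3′ on the strand of the gene, with motif matches in capitals. The first 2 windows belong to Agpat1, at chr17:34605611-34605860 and chr17:34608764-34609013 on the plus strand, and the others to Gpam, at chr19:55127239-55127488 and chr19:55099478-55099727 on the minus strand.

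Agpat1, first start: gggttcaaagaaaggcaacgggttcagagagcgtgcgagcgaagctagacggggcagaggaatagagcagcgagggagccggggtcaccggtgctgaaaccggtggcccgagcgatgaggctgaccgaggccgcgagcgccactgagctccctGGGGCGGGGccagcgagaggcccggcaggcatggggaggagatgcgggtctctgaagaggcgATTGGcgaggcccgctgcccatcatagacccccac
Agpat1, other start: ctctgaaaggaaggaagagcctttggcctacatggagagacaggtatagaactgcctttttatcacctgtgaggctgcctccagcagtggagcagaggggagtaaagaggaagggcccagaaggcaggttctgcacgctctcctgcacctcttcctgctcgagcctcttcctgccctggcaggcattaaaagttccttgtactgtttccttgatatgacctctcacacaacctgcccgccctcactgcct
Gpam, first start: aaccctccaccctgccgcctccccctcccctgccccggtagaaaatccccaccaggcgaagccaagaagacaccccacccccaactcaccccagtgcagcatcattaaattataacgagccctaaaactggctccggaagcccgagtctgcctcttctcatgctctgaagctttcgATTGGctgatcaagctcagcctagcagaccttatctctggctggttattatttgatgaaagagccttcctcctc
Gpam, other start: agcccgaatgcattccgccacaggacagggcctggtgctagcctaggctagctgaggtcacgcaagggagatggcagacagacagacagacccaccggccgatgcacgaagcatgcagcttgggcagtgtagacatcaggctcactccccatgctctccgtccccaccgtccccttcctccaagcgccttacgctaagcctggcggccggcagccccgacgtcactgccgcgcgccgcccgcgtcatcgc

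The first Agpat1 window had a GC content of 67.6% and held a GC box (GGGGCGGGG) at position -97 and a CCAAT box, read on the other strand, at position -35 from the start. The other Agpat1 window had a GC content of 54.4% and held none of the motifs searched. The first Gpam window (54.8% GC) held a CCAAT box on the other strand at position -74, and the other Gpam window (66% GC) held none. Both strands were searched, and the motifs did not overlap each other. Over all 9 member windows, CCAAT was found in 4 and GGGGCGGGG in 3, against 33.8% and 10.4% of 32851 windows of the same length. The sterol response sequence TCACCCCAC (in 0.496% of all windows), the CRX sequence TAATCC (6.25%), the E-box CACGTG (6.02%) and TATAAA (12.4%) were in 0 of the 9 member windows. A match is a description of letters, and a missing match says only that these letters were not in this window.

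The signal of each probe is given as the log2 of its background-corrected intensity minus the 75th percentile of its own array, so that 0 marks this percentile. On single arrays 59.5% to 64.6% of probes stood well above background, and 0 were saturated. HZ replicate 4 stood apart, with 657 outlier spots against 86 to 194 on the other arrays, 458 non-uniform spots against 2 to 25, and the highest share of probes above background; 0 spots of the acyltransferase probes were marked as outliers. All 8 arrays lay on 1 slide, the KO arrays in 1 row and the HZ arrays in the other, so that slide row and genotype cannot be told apart. Lpcat1 was -0.81, -0.95, -1.02 and -1.17 on HZ replicates 1 to 4 and -0.97, -1.16, -1.11 and -0.85 on KO replicates 1 to 4. These groups overlapped (difference KO minus HZ -0.037, SE 0.111, limma adjusted p = 0.931), so this probe did not tell the labels apart. Whether it reads a part of the transcript that the deletion removes was not examined, and genotypes are given as labelled. The rod genes Pde6b, Nrl and Crx and Nt5e, which encodes CD73, were well above background on all 8 arrays. Some marker lists of other cell types leaned with the labels, where 43.2% of all genes tested were lower and 56.8% higher on the KO arrays. Of the retinal pigment epithelium (RPE) list, 11 of 11 tested genes were lower on the KO arrays (median difference -1.80), with a mean deviation of 0.011 to 1.39 on the HZ arrays and -1.56 to -0.050 on the KO arrays. Of the microglia list, 9 of 9 genes were higher (median difference 0.810), at -0.831 to 0.448 and -0.026 to 0.865. Of the red blood cell list, 2 of 2 tested genes were higher (median difference 1.61), at -1.36 to 0.242 on the HZ arrays and -0.729 to 2.16 on the KO arrays. The mean deviations of the microglia and red blood cell lists overlapped between the labels. The lowest limma adjusted p of a gene was 0.368 in the RPE list, 0.54 in the microglia list and 0.581 in the red blood cell list. Of the rod list, 9 of 11 genes were lower on the KO arrays (median difference -0.132, lowest adjusted p 0.627). The bipolar list had 5 of 6 lower (-0.264, 0.611), the Muller glia list 4 of 6 (-0.079, 0.581) and the cone list 0 of 4 (0.147, 0.770). The mean deviations of these 4 lists overlapped between the labels. The part of these cells in the acyltransferase signals was not tested. In such bulk samples, fewer cells of a type and less RNA per cell cannot be told apart.

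No acyltransferase gene differed between the labels beyond the spread of the arrays once p-values were adjusted. Of the 18 probes, 15 passed the minimum of 4 arrays with a signal well above background and were tested with limma, with Benjamini-Hochberg adjustment over all 34303 tested probes, and these stood for 8 of the 9 genes; Gpat2 was not among them. At a fold over 1.2 and an adjusted p under 0.05, 0 of the 15 probes passed, and 0% of all tested probes did. At a fold over 1.5 and an adjusted p under 0.5, again 0 of 15 passed, where 0.813% of all probes were called lower and 0.227% higher on the KO arrays. At an unadjusted p under 0.05, 1 of 15 passed, a probe of Gpat4, against 8.17% of all probes. With each gene taken by its brightest tested probe, 6 of the 8 genes were lower and 2 higher on the KO arrays, against 43.2% lower among all 14848 genes tested in this way. This split rested on the choice of probe, since 7 of the 15 probes were lower and 8 higher, and with the mean of a gene's tested probes 3 of 8 genes were lower, with a median of 0.024. With the replicate number as a block, which sets arrays of the same number side by side, 0 of the 8 genes passed an unadjusted p of 0.05, against 12.5% of all genes. The median difference of the 8 genes was -0.053 and that of all genes 0.029, and the median size of the difference was 0.076 for the 8 genes and 0.124 for all.

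**Figure D1:**
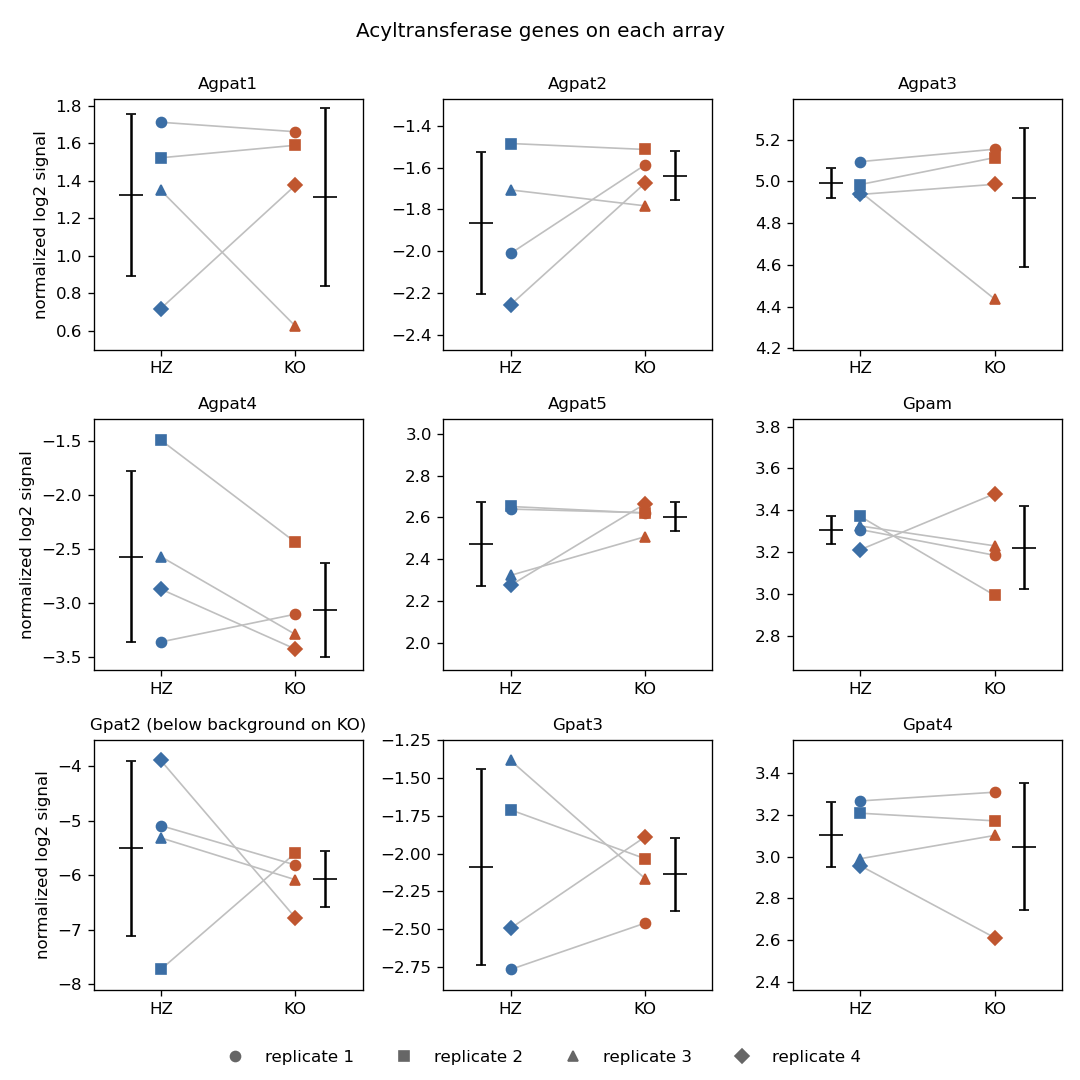
Normalized log2 signal (vertical axis, log2 units relative to each array's 75th percentile, own scale in each panel) of the brightest probe of each of the 9 genes on the HZ and KO arrays. Symbols mark the replicate number, grey lines join arrays with the same number, and the bars beside the points give the mean and SD of 4 arrays; the groups overlap in every panel, and Gpat2 was not well above background on any KO array.

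Gpam encodes the mitochondrial GPAT that is best known from liver and fat, where it directs acyl chains into glycerolipids. Its brighter probe was 3.31, 3.37, 3.32 and 3.21 on HZ replicates 1 to 4 and 3.18, 2.99, 3.23 and 3.48 on KO replicates 1 to 4. The HZ arrays lay close together, inside the range of the KO arrays, whose lowest was replicate 2 and highest replicate 4. The means were 3.30 ± 0.067 (SD, n = 4) and 3.22 ± 0.20 (SD, n = 4), a difference of -0.082 (SE 0.113, 95% interval -0.341 to 0.177, limma adjusted p = 0.844). With normexp background correction in place of the scanner software's, the difference was 0.163. The other Gpam probe, named by another transcript, was well above background on 1 HZ array and on 0 KO arrays and gives no comparison.

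Gpat2, the other mitochondrial enzyme, is known chiefly from the testis. Its only probe was at the lower end of detection, at -5.09, -7.73, -5.31 and -3.89 on HZ replicates 1 to 4 and at -5.81, -5.59, -6.08 and -6.78 on KO replicates 1 to 4. It was well above background on 3 of 4 HZ arrays, all but replicate 2, and on 0 of 4 KO arrays. The measured means were -5.51 and -6.07. For the KO detection limit, each array took the higher of the probe's own signal and the array's lowest signal well above background (mean -5.64). Against this limit, the measured HZ mean over all 4 arrays was at least 1.1-fold higher. That figure describes these arrays and is not a lower limit on a difference between genotypes. It depended on HZ replicate 4 (-3.89), the array that stood apart in outlier spots, and the HZ SD was 1.61. The probe was not tested, and HZ replicate 2 lay below every KO array.

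Gpat3 encodes a GPAT of the endoplasmic reticulum with a role in fat storage. Its brighter probe was -2.77, -1.71, -1.38 and -2.50 on HZ replicates 1 to 4 and -2.46, -2.03, -2.17 and -1.89 on KO replicates 1 to 4. The KO arrays all lay within the range of the HZ arrays. The difference was -0.048 (SE 0.306, 95% interval -0.752 to 0.655, limma adjusted p = 0.971), and for the dimmer probe it was -0.117 (SE 0.315, adjusted p = 0.923). The interval of the brighter probe thus runs from 0.594 to 1.58 times the HZ level, so that changes within these bounds were not resolved.

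Gpat4, the other GPAT of the endoplasmic reticulum, was measured by 3 probes, of which the brightest did not move with the others. The brightest was 3.27, 3.21, 2.99 and 2.96 on HZ replicates 1 to 4 and 3.31, 3.17, 3.10 and 2.61 on KO replicates 1 to 4. It overlapped between the labels, with KO replicate 4 the lowest of all arrays (difference -0.057, SE 0.161, limma adjusted p = 0.927). Probe A_51_P335710 was -0.95, -0.92, -1.21 and -1.21 on the HZ arrays and -0.89, -0.85, -0.80 and -0.75 on the KO arrays. All 4 KO arrays lay above all 4 HZ arrays, as did those of 4.19% of all tested probes. Its difference was 0.253 (SE 0.099, 95% interval 0.024 to 0.482), with an unadjusted p of 0.0341 and an adjusted p of 0.585 (limma). In pairs of equally numbered arrays the difference was 0.063, 0.074, 0.411 and 0.463. With the replicate number as a block the unadjusted p of this probe was 0.0642. The third probe, A_51_P335716, followed it over the 8 arrays (Pearson's r = 0.934 as a description) with a difference of 0.175 (SE 0.121, adjusted p = 0.718), whereas the brightest probe did not (r of -0.026 and 0.157). The direction for Gpat4 therefore depended on the probe.

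Agpat3, the member tied to DHA in the retina, was measured by a pair of probes with bright signals. The brighter was 5.09, 4.98, 4.95 and 4.94 on HZ replicates 1 to 4 and 5.15, 5.11, 4.44 and 4.99 on KO replicates 1 to 4. KO replicate 3 stood below all other arrays, and the other 3 KO arrays lay above HZ replicates 2 to 4, replicate 4 only just. The means were 4.99 ± 0.071 and 4.92 ± 0.332 (SD, n = 4 each), a difference of -0.069 (SE 0.161, 95% interval -0.438 to 0.300, limma adjusted p = 0.910). Without KO replicate 3 the difference was 0.093. The other Agpat3 probe was 4.29, 4.08, 4.08 and 4.02 on the HZ arrays and 4.34, 4.15, 4.25 and 4.24 on the KO arrays, with no drop on KO replicate 3. Here the groups overlapped through HZ replicate 1, and the difference was 0.129 (SE 0.090, 95% interval -0.077 to 0.336, adjusted p = 0.718). Over the 8 arrays the Agpat3 probes correlated with r = 0.037, as a description.

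The genes whose brightest probe was most like that of Agpat3 over the 8 arrays, of 14741 searched, were Hook2 (Pearson's r = 0.995), Retreg2 (0.986) and Klf7 (0.977). All 3 were lowest on KO replicate 3, at 1.81, 4.15 and 1.28. Since the genes were picked for their likeness to Agpat3, the shared low array follows from the ranking, which is a description of these 8 arrays.

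**Figure D2:**
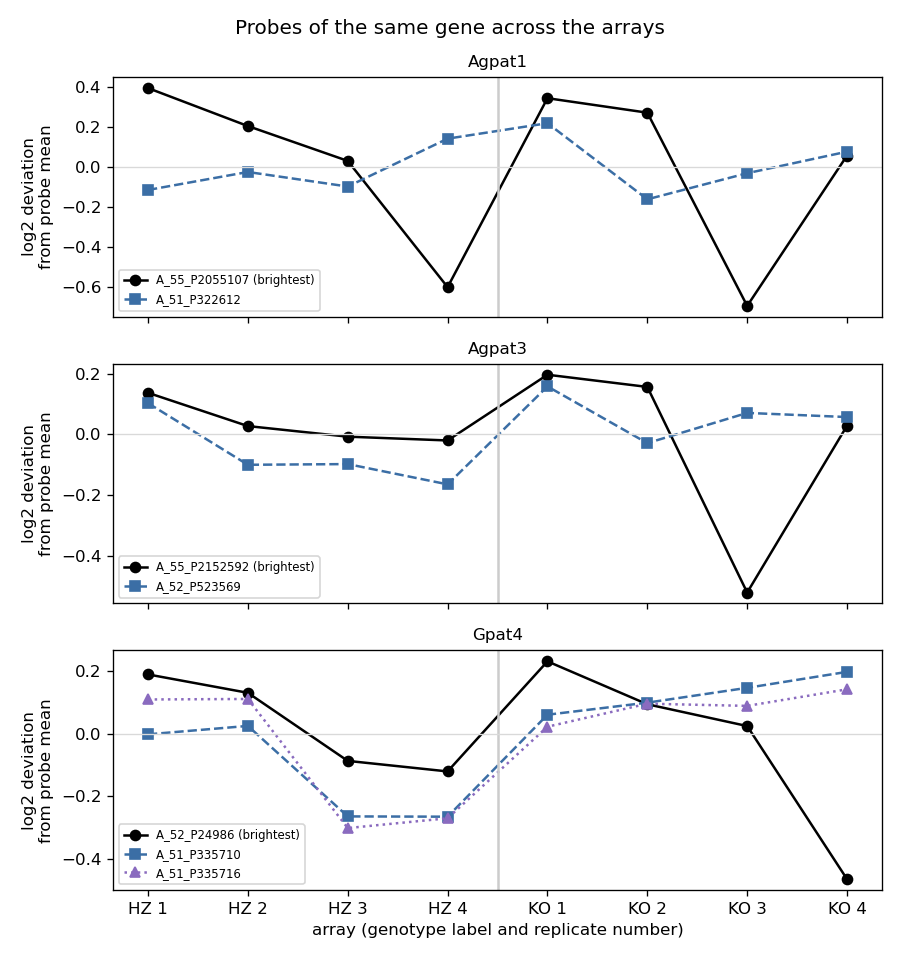
Log2 deviation of each probe from its own mean over the 8 arrays (vertical axis) on HZ replicates 1 to 4 and KO replicates 1 to 4 (horizontal axis), for the 3 genes whose tested probes differed in direction; each line is 1 probe. The brightest Agpat3 probe drops on KO replicate 3 and the brightest Gpat4 probe on KO replicate 4 while the other probes of these genes do not, and the Agpat1 probes part on HZ replicate 4 and KO replicate 3.

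Agpat1 encodes a widely expressed acyltransferase of the endoplasmic reticulum. Its brighter probe was 1.71, 1.52, 1.35 and 0.72 on HZ replicates 1 to 4 and 1.66, 1.59, 0.62 and 1.38 on KO replicates 1 to 4. Each label thus had 1 low array, HZ replicate 4 and KO replicate 3, and the others overlapped. The difference was -0.013 (SE 0.283, 95% interval -0.664 to 0.639, limma adjusted p = 0.992), and leaving out single arrays moved it from -0.215 without HZ replicate 4 to 0.217 without KO replicate 3. The dimmer probe, named by another transcript of the gene, ranged from -3.10 to -2.84 on the HZ arrays and from -3.15 to -2.77 on the KO arrays, without the 2 low arrays. Its difference was 0.050 with a narrower error (SE 0.109, 95% interval -0.20 to 0.300, adjusted p = 0.904), and it correlated with the brighter probe with r = -0.207 over the 8 arrays.

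Agpat2 is the member whose loss causes congenital lipodystrophy. Its brighter probe was -2.01, -1.48, -1.71 and -2.26 on HZ replicates 1 to 4 and -1.59, -1.51, -1.78 and -1.67 on KO replicates 1 to 4. The KO arrays lay inside the HZ range. The difference of 0.225 (SE 0.168, 95% interval -0.161 to 0.612, limma adjusted p = 0.733) had the lowest adjusted p of the 8 genes. Without HZ replicate 2 it was 0.352 (SE 0.144, unadjusted p = 0.0438, limma adjusted p = 0.332), where 13.5% of all genes had an unadjusted p under 0.05. Without HZ replicate 4 it was 0.095 (SE 0.141, adjusted p = 0.911). The dimmer probe, well above background on 3 HZ and 4 KO arrays, differed by 0.327 (SE 0.224, adjusted p = 0.717).

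Agpat5, an acyltransferase reported at mitochondria, was measured by a pair of probes that followed each other over the arrays (r = 0.733). The brighter was 2.64, 2.65, 2.32 and 2.28 on HZ replicates 1 to 4 and 2.62, 2.62, 2.51 and 2.66 on KO replicates 1 to 4. HZ replicates 3 and 4 were low, and the other HZ arrays lay among the KO arrays. The difference was 0.131 (SE 0.113, 95% interval -0.129 to 0.392, limma adjusted p = 0.760), and without HZ replicate 4 it was 0.066. That of the other probe was 0.082 (SE 0.079, adjusted p = 0.782).

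Agpat4 had the largest difference of the 8 genes and also the largest error. Its testable probe was -3.36, -1.49, -2.57 and -2.87 on HZ replicates 1 to 4 and -3.10, -2.44, -3.29 and -3.42 on KO replicates 1 to 4. Replicate 2 was the highest array of each label, and HZ replicate 1 was lower than 3 of the 4 KO arrays, all but replicate 4. The means were -2.57 ± 0.789 and -3.06 ± 0.437 (SD, n = 4 each), a difference of -0.489 (SE 0.393, 95% interval -1.39 to 0.415, limma adjusted p = 0.746). The size depended on single arrays, at -0.130 when HZ replicate 2 was left out and -0.751 when HZ replicate 1 was. KO was lower in 3 of the 4 pairs with the same number, by 0.943, 0.718 and 0.553 on the log2 scale in pairs 2 to 4, and higher by 0.256 in pair 1. With the replicate number as a block the SE was 0.213 and the adjusted p 0.447. The other Agpat4 probe was well above background on 1 array of each label, replicate 2 in both.

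Of the marker lists, those of Muller glia, bipolar and vascular cells were, like Agpat4, highest on replicate 2 of each label, and are named here after their values were seen; the RPE, microglia and cone lists were not. The mean deviation of 6 Muller glia markers was highest on HZ replicate 2 (0.574) and KO replicate 2 (0.424), with -0.201, 0.133 and -0.071 on the other HZ arrays and -0.231, -0.226 and -0.402 on the other KO arrays. That of 6 bipolar cell markers was 0.373 on HZ replicate 2 and 0.035 on KO replicate 2, the highest array of each label, and the lowest were -0.249 and -0.259 on KO replicates 3 and 4. Of 3 vascular markers the mean deviation was 0.355 on HZ replicate 2 and 0.573 on KO replicate 2. The vascular marker Pecam1 went the other way, with its lowest HZ signal on replicate 2 (-3.16). On KO replicate 2 Pecam1 (-2.82) lay below KO replicates 3 and 4 (-2.48 and -2.69). The vascular marker Cdh5 was well above background on 0 of 8 arrays and was not among the 3, which were Pecam1, Kdr and Cldn5. The part of these cells in the Agpat4 signal was not tested. The genes whose brightest probe was most like that of Agpat4, of 14741 searched, were Rcn3 (r = 0.991), Dock1 (0.990) and Rnf144a (0.988). All of them were highest on HZ replicate 2, as Agpat4 was, which follows from how they were picked and is only a description.

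**Figure D3:**
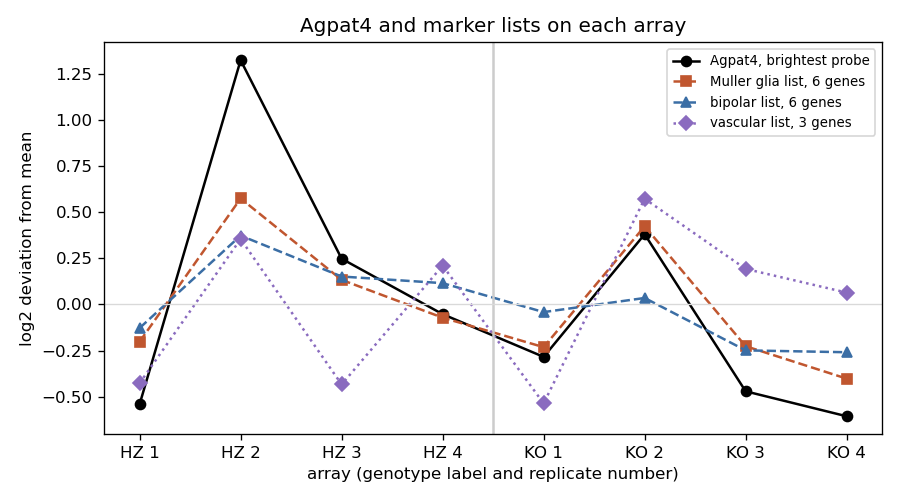
Log2 deviation from the mean over the 8 arrays (vertical axis) of the brightest Agpat4 probe and of the mean of 6 Muller glia, 6 bipolar and 3 vascular marker genes, on HZ replicates 1 to 4 and KO replicates 1 to 4 (horizontal axis). Agpat4, the Muller glia list and the bipolar list are highest on replicate 2 within each label.

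The intervals show how large a difference the 8 arrays could have missed. For 14 of the 15 tested probes, all but that of Agpat4, the 95% interval lay within a 2-fold change in either direction, and for 9 of 15 it lay within 1.5-fold; among all tested probes these shares were 85.7% and 61.6%. By brightest probe, the interval stayed within 1.5-fold for 4 of 8 genes, Agpat3, Agpat5, Gpam and Gpat4, against 68.1% of all genes tested. An adjusted p above the threshold does not show that the levels were the same. For 3 of the 6 genes with several tested probes, Agpat1, Agpat3 and Gpat4, the probes differed in the sign of the difference. The levels of different genes were not ranked, because signals of different probes are not on a common scale.

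**Figure D4:**
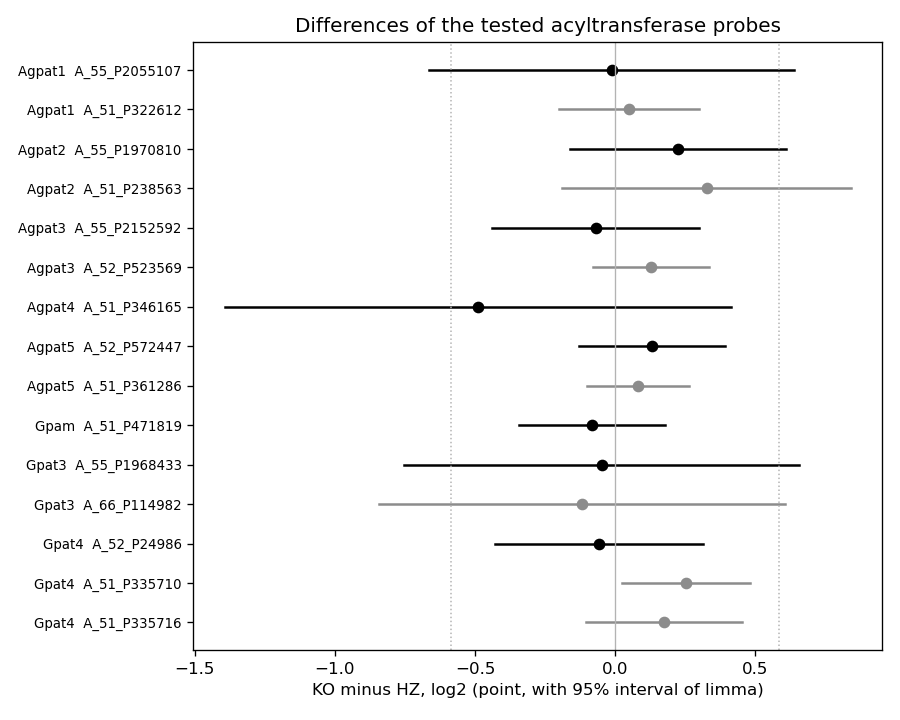
Difference KO minus HZ on the log2 scale (horizontal axis) with its 95% interval from limma for the 15 tested probes of the 8 genes; black points are the brightest probe of a gene, grey points its other probes, and dotted lines mark a 1.5-fold change. The interval of 1 probe, A_51_P335710 of Gpat4, leaves out 0.

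Genes that handle the substrates or the product of this route, or work beside it, were described in the same way, with 25 of 25 genes tested. On the KO arrays 12 were lower and 13 higher, with a median of 0.035, and 0 passed either pair of thresholds, where 1.13% of all genes tested were called lower and 0.33% higher at the looser pair. At an unadjusted p under 0.05, 2 of the 25 passed, Tamm41 and Acsl3, against 9.3% of all genes tested. All 4 genes of enzymes that make or use glycerol phosphate (Gpd1, Gpd1l, Gpd2 and Gk) were above 0, at 0.090 to 0.324. Of all genes 56.8% were above 0, and the lowest adjusted p among the 4 was 0.642, that of Gpd2. The long-chain acyl-CoA synthetases, which activate the fatty acids that the GPATs use, were lower in 4 of 5 cases (-0.725 to 0.0998, lowest adjusted p 0.533). The enzymes that turn phosphatidic acid into diacylglycerol, the lipins and the Plpp phosphatases, were lower in 5 of 6 cases (-0.272 to 0.147, lowest adjusted p 0.651). Of CDP-diacylglycerol synthesis 1 of 3 genes was lower (-0.087 to 0.397, lowest adjusted p 0.475), and of triacylglycerol synthesis 1 of 2 (-0.0022 to 0.247, 0.705). Of the remaining genes 1 of 5 was lower (-0.031 to 0.188, 0.701). Among all genes tested 43.2% were lower. None of these small groups was tested as a group.

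Acsl3, an acyl-CoA synthetase of the endoplasmic reticulum and lipid droplets, had the largest difference among them. Its brighter probe was 0.45, 0.88, 0.60 and -0.34 on HZ replicates 1 to 4 and -0.20, -0.22, -0.21 and -0.68 on KO replicates 1 to 4. HZ replicate 4 lay below 3 KO arrays, and the other HZ arrays above all of them (difference -0.725, SE 0.255, 95% interval -1.31 to -0.140, limma adjusted p = 0.533). With the replicate number as a block the adjusted p was 0.319. The dimmer Acsl3 probe had a difference of -0.227 (SE 0.168, adjusted p = 0.731).

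Tamm41, the mitochondrial enzyme that makes CDP-diacylglycerol from phosphatidic acid for cardiolipin, was 0.94, 1.1, 0.99 and 0.82 on HZ replicates 1 to 4 and 1.12, 1.51, 1.29 and 1.52 on KO replicates 1 to 4. The KO arrays all lay above the HZ arrays (difference 0.397, SE 0.118, 95% interval 0.127 to 0.668, limma adjusted p = 0.475), as they did for 5.48% of all genes tested. Gpd2, the mitochondrial glycerol-3-phosphate dehydrogenase, differed by 0.324 (SE 0.160, adjusted p = 0.642). Plpp1, a phosphatidic acid phosphatase, differed by -0.272 (SE 0.140, adjusted p = 0.651). Dgat1, which adds the last acyl chain of triacylglycerol, differed by 0.247 (SE 0.160, adjusted p = 0.705).

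Gnpat, which acylates dihydroxyacetone phosphate in peroxisomes at the start of ether lipid synthesis and so catalyses the closest parallel to the GPAT step, is named here after its values were seen. Its probe A_55_P2742116 was 0.83, 0.93, 0.65 and 0.65 on HZ replicates 1 to 4 and 1.24, 1.38, 1.22 and 1.56 on KO replicates 1 to 4. These groups did not overlap, as for 4.19% of all probes with KO higher. The difference was 0.583 (SE 0.112, 95% interval 0.325 to 0.840, unadjusted p = 7.77e-04, limma adjusted p = 0.328). This probe had the lowest p of the 43 tested probes of the 25 neighbour genes. Of those 43 probes, 4 had an unadjusted p under 0.05, where 8.17% of all probes did. How many of all probes had a p as low as 7.77e-04 was not counted. The brightest Gnpat probe, by contrast, lay at 3.98 to 4.06 on the HZ arrays and 3.90 to 4.31 on the KO arrays. Its difference was 0.111 (SE 0.0996, adjusted p = 0.769), and a further probe differed by 0.057 (SE 0.255, adjusted p = 0.958). The differences of the Gnpat probes were thus unequal in size, though all above 0, whereas those of Gpat4 also differed in sign.

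**Figure D5:**
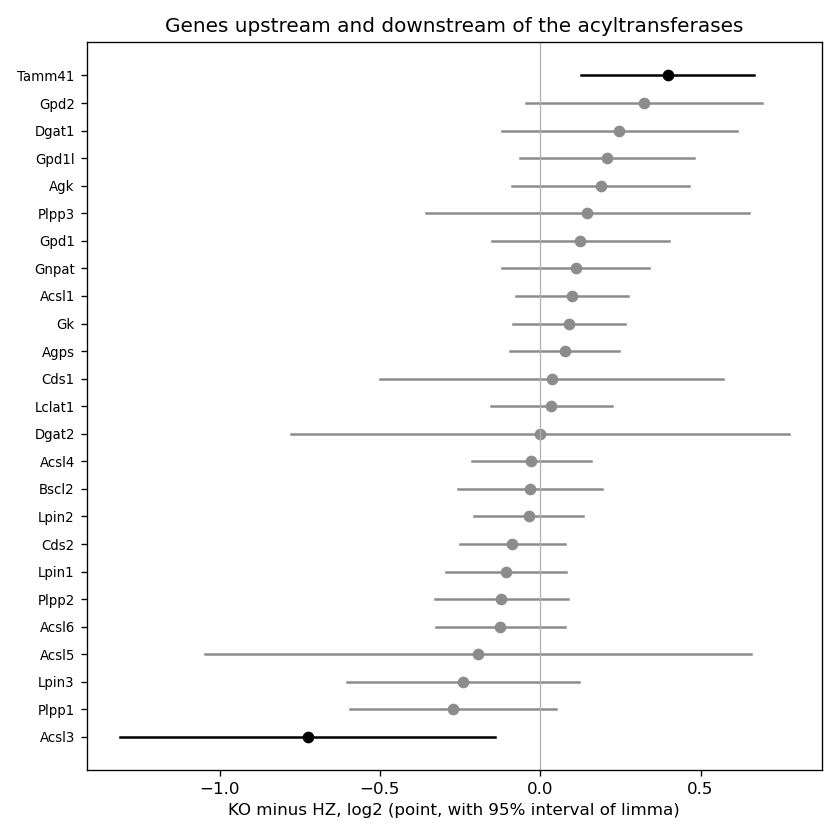
Difference KO minus HZ on the log2 scale (horizontal axis) with its 95% interval from limma for the brightest tested probe of each of 25 genes, in order of the difference. These genes handle the substrates or the product of the acyltransferases, or work beside them. Black points mark Tamm41 and Acsl3, whose intervals leave out 0.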

How the data were processed

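Labels put 4 arrays in group HZ and 4 in group KO. The authors scanned the arrays with Agilent Feature Extraction (version 10.7.1.1 per the submitters' processing notes) and deposited a background-subtracted intensity for each spot. A second deposited table holds log2 values that the authors made in GeneSpring by a 75 percentile shift. Set against the scanner signals, these were on the log2 scale with each probe centred on its median over the arrays (r = 0.9985, slope 0.996 after centring), with column medians of -0.0652 to 0.2.

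The log2 intensity of each spot was set against the 75th percentile of non-control spots on its array (882 to 1024 intensity units), outlier spots were left out (0 of the member probes) and spots of a probe were averaged. Probes detected well above background by 4 or more arrays, with 3 or more values per group, were tested two-sided in R (version 4.3.3) by the lmFit and eBayes functions of limma (version 3.58.1), a step that was tested on simulated data. Files were read with the data.table package, version 1.17.8. Groups do not overlap where all arrays of one lie beyond all of the other. Probes were named by RefSeq accession through a table of GRCm38.p6, which matched 32994 of 56605 probes. A gene is reported by its tested probe with the highest mean. The methods name unpaired tests of 2 groups and give both pairs of thresholds. The number of arrays limits the precision. Plots were drawn with matplotlib 3.10.9.

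Arrays with the same replicate number, which is also the slide column, deviated together from their group means (r of 0.172 to 0.337 in 4 pairs, against -0.337 to 0.117 for different numbers), so the numbers were taken as pairs in an alternative with the number as a block.

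Members, gene lists, alternative settings and the naming rule were chosen with earlier results of these data known. Named are Lpcat1, the members with every probe, the 5 pathway neighbours with the largest difference (as fewer than 5 passed an unadjusted p of 0.05), and for Agpat3 and the member with the largest difference the 3 most correlated genes. Gnpat was added outside this rule, after its values were seen. The alternatives were quantile normalization, normexp (offset 50, on median spot signals), a percentile taken from consistently detected probes, a stricter or absent filter on dim signals, the methods' t-test, eBayes with trend and robust options, the block, the authors' log2 values, the mean of a gene's tested probes, and each array left out. Whole-retina arrays of the study were not used here.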

Additional observations from a re-analysis of the deposited data

How the results depend on the processing

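Under every alternative run, 0 acyltransferase genes passed either pair of thresholds. Agpat2, Agpat4 and Agpat5 kept their direction in 18 of 18 settings, but not all of these could have changed it. Settings that changed only the filter on dim signals, the test or the block left the differences at 0.225, -0.489 and 0.131, as in the main setting. The sign was fixed there, and the settings with single arrays left out shared most of their arrays. Differences that changed sign were those of Gpat3 with quantile normalization (0.0064), Gpat3, Gpam and Lpcat1 with normexp (0.123, 0.163 and 0.0049), Agpat1 with the authors' values (0.0040), and Agpat1, Agpat3 and Gpat4 with the mean of a gene's tested probes (0.018, 0.030 and 0.124), which left 3 of 8 genes lower. The mean of probes reverses these signs because the dimmer probes of the 3 genes were higher on the KO arrays; for the others the cause was not tested.

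Leaving out single arrays, the difference ranged from -0.097 to 0.022 for Lpcat1, -0.215 to 0.217 for Agpat1, 0.095 to 0.352 for Agpat2, -0.146 to 0.093 for Agpat3, -0.751 to -0.130 for Agpat4, 0.066 to 0.191 for Agpat5, -0.168 to -0.0057 for Gpam, -0.275 to 0.187 for Gpat3 and -0.144 to 0.088 for Gpat4. The median of the 8 genes ranged from -0.110 to 0.027, the number of lower genes from 4 to 6, and the number at an unadjusted p under 0.05 from 0 to 1, the latter Agpat2 without HZ replicate 2. In that setting 13.5% of all genes passed the same p. Gpat2, not tested in the main setting, entered counts with no filter on dim probes.

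With the replicate number as a block, 0 of 8 acyltransferase genes passed an unadjusted p of 0.05 (12.5% of all genes did), with a lowest adjusted p of 0.447 for Agpat4, and 4 of 25 pathway neighbours passed it. That count was 4 with the methods' t-test (11.4% of all genes), 4 with the mean of probes (10%), 8 with normexp (11.6%), and 1 to 3 with single arrays left out (6.66% to 13.5%), lowest without HZ replicate 3 or KO replicate 4. The median of the neighbours was 0.0039 with a percentile taken from consistently detected probes, -0.0022 with the mean of probes, and 0.0013 to 0.056 with arrays left out. Dim signals limit Gpat2 and a probe each of Agpat4 and Gpam, which were not well above background on enough arrays to be compared.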
